A study of Equus caballus with 3 samples.

Results

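Cells that run short of oxygen switch on a shared set of genes, and 10 genes of that response were followed here in equine mesenchymal stromal cells (MSCs), the adherent, multipotent cells grown from connective tissues. They were chosen by name, with results of these data in view: the secreted factors *ADM* and *VEGFA*, the mitochondrial and metabolic genes *NDUFA4L2*, *BNIP3*, *PDK1* and *SLC2A1*, the feedback and accessory genes *EGLN3* and *ANKRD37*, and the oxygen-regulated transcription factor subunits *HIF1A* and *EPAS1*. All 10 were found by symbol among the 29893, 29901 and 29882 genes in the count tables of the cells grown from fat (adipose tissue, AT), from marrow (BM) and from circulating blood (PB).

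The cells came from 1 healthy Warmblood mare of 10 years and were profiled by droplet single-cell RNA sequencing after 2 passages, with 1 library from each of the 3 sources. No treatment, genetic change or oxygen level was named in the sources used here. The sources follow from the sample titles, whereas the deposited source name reads blood mononuclear cells for all 3 samples. With 1 library and 1 animal, source, culture and library cannot be told apart, no difference between sources has a replicate check in the data analysed here, and no test was run.

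In the presence of oxygen, prolyl hydroxylases of the EGLN family mark the alpha subunits of the hypoxia-inducible factors (HIF), HIF1A and EPAS1 (HIF2A), for binding by VHL and for degradation. When oxygen falls, the alpha subunits persist, pair with ARNT and bind the regulatory elements of their target genes. This control acts largely on the protein, so the mRNA of *HIF1A* or *EPAS1* does not report HIF activity, and several targets also respond to other signals.

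Barcodes with 2500 to 15000 unique molecular identifiers (UMIs, 1 per captured transcript) and at most 3% of UMIs from mitochondrial genes were kept as cells. This left 5403 AT-, 5580 BM- and 5318 PB-derived MSCs, with 39980656, 40239295 and 41622445 UMIs in all and medians of 7291, 6874.5 and 7750 UMIs per cell. Stromal markers (*THY1*, *CD44*, *ENG*, *ITGB1*, *PDGFRA*, *PDGFRB*, *COL1A1*, *COL1A2*) summed to 14786, 7855 and 14062 CPM (counts scaled to the same total in each source). Of the 8 endothelial and the 8 haematopoietic markers, 7 each were in the tables, and none reached 10 CPM. Their sums lay between 1.34 and 4.90 CPM for endothelial and between 0.144 and 0.325 CPM for haematopoietic markers, with 3 to 4 endothelial and 2 to 5 haematopoietic markers at 0. Between 72 and 77 kept barcodes of each source were kept in another library too. In addition, every one of the 5318 kept PB barcodes also occurs in the AT table, where 5279 of them lie below 2500 UMIs and were not kept for AT. Leaving out barcodes kept in another library changed none of the counts of members given for the main settings.

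*ADM* and *NDUFA4L2* were highest in AT-derived MSCs and lowest in PB-derived MSCs, while *VEGFA*, *BNIP3*, *PDK1* and *SLC2A1* had the opposite order, except that AT and BM changed places for *BNIP3* under 3 alternatives: TMM scaling (a trimmed mean normalization of the library totals), all barcodes of at least 500 UMIs, and the cells with the fewest proliferation transcripts. The alternative with all barcodes takes into AT most of its low barcodes that are kept in PB. *HIF1A* was nearly level across the sources, and *EPAS1* was highest in BM. The genes of the response therefore did not share 1 order of sources. Because the genes were chosen with between-source values known, those values are given as a description, and intervals are exact 95% Poisson or Clopper-Pearson intervals, which cover counting error only.

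**Figure D1:**
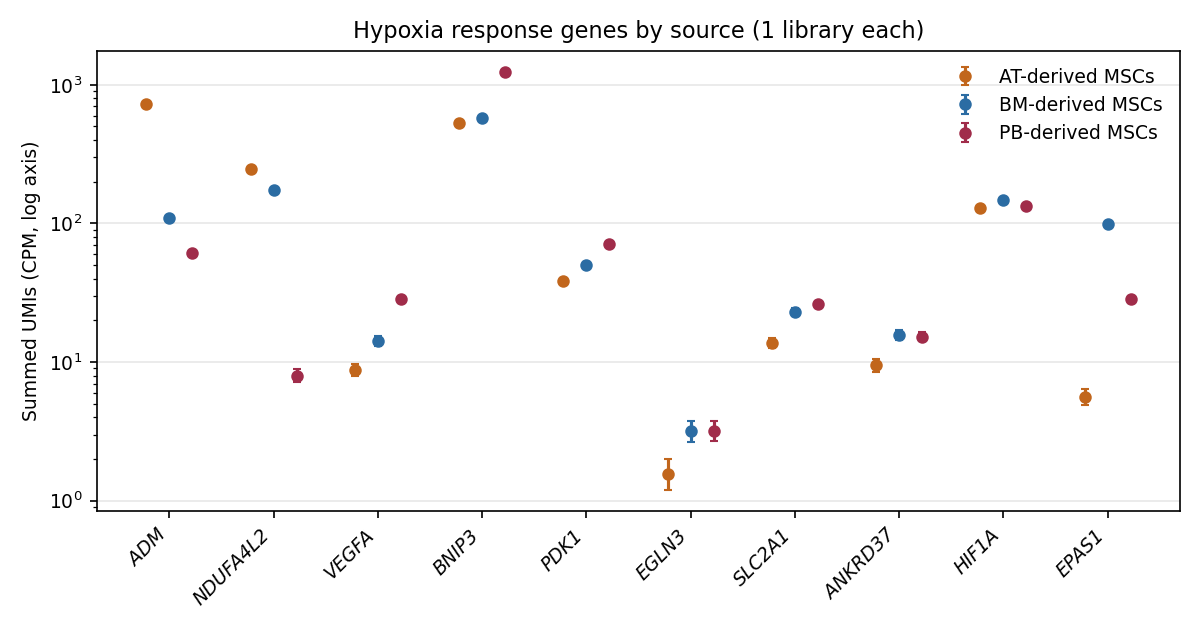
Summed UMIs of the 10 hypoxia response genes in CPM (log axis) in MSCs from the 3 sources, 1 library each, with exact 95% Poisson intervals, which are smaller than the symbol for most genes. *ADM* was at 729.8 CPM in AT and 60.8 in PB and *NDUFA4L2* at 249 and 8.0, while *BNIP3* was at 528 in AT and 1232 in PB.

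*ADM* (chromosome 7 of EquCab3.0) encodes adrenomedullin, a secreted peptide that widens blood vessels. It was at 729.8 CPM (interval 721 to 738) in AT, 110.0 CPM (107 to 113) in BM and 60.8 CPM (58.4 to 63.2) in PB. At least 1 *ADM* UMI was found in 84.7% of the AT cells, as against 34.8% for BM and 29.7% for PB. Most AT cells thus carried *ADM*, and most cells of the other sources had no UMI of it. Because cells differ in depth, each was also thinned at random to 2500 UMIs, after which the shares were 67.6% (66.3 to 68.9), 18.8% (17.8 to 19.8) and 12.6% (11.7 to 13.5). The ratio of AT to BM was 6.64 (6.43 to 6.85) and that of AT to PB 12.01 (11.5 to 12.5). BM exceeded PB by a smaller ratio of 1.81 (1.72 to 1.90).

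*ADM* was also unevenly spread within a source. In cells of equal depth, the variance of its UMIs divided by their mean (the Fano factor, 1 for pure counting noise) was 2.27 in AT, 1.76 in BM and 1.25 in PB. Its mean was 1.82, 0.269 and 0.150 UMIs per thinned cell. For a given relative spread of levels the factor rises with the mean, so it does not rank sources or genes by unevenness. Free RNA in droplets can add UMIs to cells that do not express a gene, and since the cultures held no named cell type that lacks these genes, that background was not measured.

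*VEGFA* (chromosome 20), the endothelial growth factor that drives vessel sprouting, ran the other way. Its level was 8.78 CPM (7.88 to 9.75) in AT, 14.3 CPM (13.1 to 15.5) in BM and 28.5 CPM (26.9 to 30.1) in PB. PB was above AT by a ratio of 3.24 (2.88 to 3.66), and the intervals of the sources did not overlap. The share of cells with a UMI had the same order, at 6.16%, 9.14% and 18.6%. The pair of secreted factors thus had opposite orders.

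The main signalling receptors of both peptides were sparse in these cultures, whereas the partner genes *RAMP2* and *NRP1* were not. Adrenomedullin signals through CALCRL joined to a RAMP partner. *CALCRL* was at 0.125 CPM in AT and 0.0746 CPM in BM and had no UMI in PB, where 3 UMIs would correspond to 0.0721 CPM. *RAMP2* was at 60.3, 62.9 and 35.5 CPM, *RAMP1* below 0.35 CPM in each source, and *CALCR* had no UMI in any source. The scavenging receptor gene *ACKR3* was at 2.40, 4.35 and 19.5 CPM, highest where *ADM* was lowest. *KDR*, the main VEGFA receptor of endothelium, had no UMI in any source, and *FLT1* and *FLT4* stayed below 0.6 CPM. Among the VEGF co-receptors, *NRP1* was at 16.3, 30.2 and 9.44 CPM and *NRP2* at 0.800, 3.06 and 2.96 CPM.

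*NDUFA4L2* (chromosome 6) encodes a mitochondrial protein that lowers electron transport chain activity in hypoxia. It was high in AT, lower in BM and scarce in PB, at 249 CPM (244 to 254), 174 CPM (170 to 178) and 8.0 CPM (7.16 to 8.91). The share of cells with a UMI was 55.1%, 43.7% and 3.80%, and after thinning 34.3%, 26.6% and 1.82%. The ratio to PB was 31.1 (27.9 to 34.8) for AT and 21.8 (19.5 to 24.4) for BM, whereas AT exceeded BM by a ratio of 1.43 (1.39 to 1.47). *NDUFA4L2* therefore set PB apart from both other sources, while *ADM* set AT apart from both.

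*BNIP3* (chromosome 1) encodes a mitochondrial outer membrane protein that promotes mitophagy. It was at 528 CPM (521 to 535) in AT, 575 CPM (567 to 582) in BM and 1232 CPM (1221 to 1242) in PB. PB exceeded AT by a ratio of 2.33 (2.30 to 2.37) and BM by 2.14 (2.11 to 2.18). After thinning, a UMI was present in 57.1%, 59.8% and 79.6% of cells, so PB was highest in the share of cells as well. Its Fano factor was 2.90, 2.86 and 3.95, at means of 1.31, 1.40 and 3.06 UMIs per thinned cell. As the factor rises with the mean, it does not rank *BNIP3* against the other genes. The related mitophagy gene *BNIP3L* was at 217, 183 and 182 CPM, without an excess in PB.

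*PDK1* (chromosome 18) encodes a kinase that shuts pyruvate dehydrogenase and so keeps pyruvate out of the mitochondrion. Its level was 38.7, 50.3 and 70.7 CPM in AT, BM and PB, with PB above AT by a ratio of 1.82 (1.72 to 1.94). The other pyruvate dehydrogenase kinases had other orders, with *PDK2* at 26.8, 15.8 and 15.5 CPM, *PDK3* at 24.8, 31.7 and 22.7 CPM and *PDK4* at 0.825, 1.71 and 0.889 CPM. *SLC2A1* (chromosome 2), the glucose transporter GLUT1, was at 13.8 CPM (12.6 to 15.0), 22.9 CPM (21.4 to 24.4) and 26.1 CPM (24.6 to 27.7). Both were lowest in AT and highest in PB.

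*EGLN3* (chromosome 1), an oxygen-sensing prolyl hydroxylase that HIF itself induces, was the sparsest member and stayed under 10 CPM in every source. It was at 1.55 CPM (1.19 to 1.99) in AT, 3.18 CPM (2.65 to 3.78) in BM and 3.20 CPM (2.68 to 3.79) in PB, which rests on 62, 128 and 133 UMIs. *ANKRD37* (chromosome 27), an ankyrin repeat gene induced by HIF, was at 9.48 CPM (8.55 to 10.5), 15.7 CPM (14.5 to 17.0) and 15.3 CPM (14.1 to 16.5). Both were lowest in AT, and BM and PB did not differ beyond their counting intervals, with BM to PB ratios of 0.995 (0.775 to 1.28) and 1.03 (0.919 to 1.15).

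*HIF1A* (chromosome 24) was at 129 CPM (126 to 133) in AT, 149 CPM (145 to 153) in BM and 133 CPM (130 to 137) in PB. AT and PB did not differ beyond counting error, with a ratio of 0.971 (0.935 to 1.01). *EPAS1* (chromosome 15), the HIF2A subunit, was at 5.63 CPM (4.92 to 6.41), 98.4 CPM (95.4 to 102) and 28.4 CPM (26.8 to 30.0). It was therefore lowest in the source with the most *ADM*. BM exceeded AT by a ratio of 17.5 (15.3 to 20.1) and PB by 3.47 (3.25 to 3.71). The thinned share of cells with an *EPAS1* UMI followed the same order, at 1.30%, 21.0% and 6.66%.

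The rest of the oxygen-sensing machinery was compared between sources too, a difference of at least 1 in log2(CPM + 1) being called 2-fold. Of 14 fixed genes 13 were in the tables, and 10 of these reached 10 CPM, none of them 2-fold apart between any of the sources. Since between 2.15% and 8.33% of all genes tested were called in 1 direction of a comparison, 0 of 10 lies near the background. The shared beta subunit gene *ARNT* was at 15.6, 17.0 and 13.7 CPM. The hydroxylase genes *EGLN1* (20.1, 23.5 and 26.6 CPM), *EGLN2* (54.1, 72.5 and 49.4 CPM) and *HIF1AN* (15.3, 16.1 and 13.5 CPM) were called in no comparison either. The coactivator genes *CREBBP* (32.4, 33.6 and 32.7 CPM) and *EP300* (13.0, 14.3 and 13.9 CPM) and the ubiquitin ligase genes *ELOB*, *ELOC*, *CUL2* and *RBX1* made up the remainder. *ARNT2*, *HIF3A* and *CITED2* stayed below 4 CPM. Of these, *CITED2*, which competes with HIF for its coactivators, was at 2.25, 0.770 and 0.288 CPM.

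Differences were put on 1 scale as differences of log2(CPM + 1), with calls as above, among genes with at least 10 CPM in 1 of the sources compared. Between AT and BM, *ADM* was called higher (2.72) and *EPAS1* lower (-3.91), and the other 8 members lay within 2-fold, of which *EGLN3* did not reach 10 CPM in any source, so that 9 of 10 members passed this filter. Of all 7072 genes tested, 2.46% were called higher in AT and 8.33% lower. The median difference of the 10 members was -0.51, beside -0.24 for all genes tested.

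Between AT and PB, 2 members were called higher in AT, *NDUFA4L2* (4.79) and *ADM* (3.56), and 3 were called lower, *EPAS1* (-2.15), *VEGFA* (-1.59) and *BNIP3* (-1.22). Among the 6720 genes tested 4.02% were called higher in AT and 5.8% lower. The members' median was -0.78, with 8 of 10 lower in AT, beside a median of -0.03 over all genes. Only these 2 members were higher in AT than in PB, and the same 2 were the ones higher in AT than in BM, except for small positive differences of *HIF1A* under TMM scaling (both comparisons) and of *BNIP3* between AT and BM under TMM scaling (0.16), with all barcodes of at least 500 UMIs (0.06) and in the cells with the fewest proliferation transcripts (0.02).

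Between BM and PB, *NDUFA4L2* (4.28) and *EPAS1* (1.76) were called higher in BM and *BNIP3* (-1.10) lower, while *VEGFA* lay just inside the 2-fold limit at -0.95. Over all 7066 genes tested, 7.95% were at least 2-fold apart, 5.8% being higher in BM and 2.15% lower. The members split evenly, with 5 higher in each source, although *HIF1A* and *ANKRD37* turned under TMM scaling and *EGLN3*, with close to no difference, turned under other alternatives. The 3 comparisons share libraries, so they are not independent of each other. BM cells also carried more cell cycle transcripts, with 18 of 25 proliferation genes at least 2-fold above PB and 11 of 25 above AT. Restricting each source to the cells with the least of these transcripts left the counts of 1, 2 and 3 members (higher in AT than BM, higher in AT than PB, and apart between BM and PB) as they were. Between AT and BM, however, *ANKRD37* then became 2-fold lower in AT (-1.06), and *BNIP3* changed sign. The 2790 BM cells kept exceed the 2314 thinned BM cells with none of these UMIs, so some still carried them. The part of the cell cycle in the differences was not tested.

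**Figure D2:**
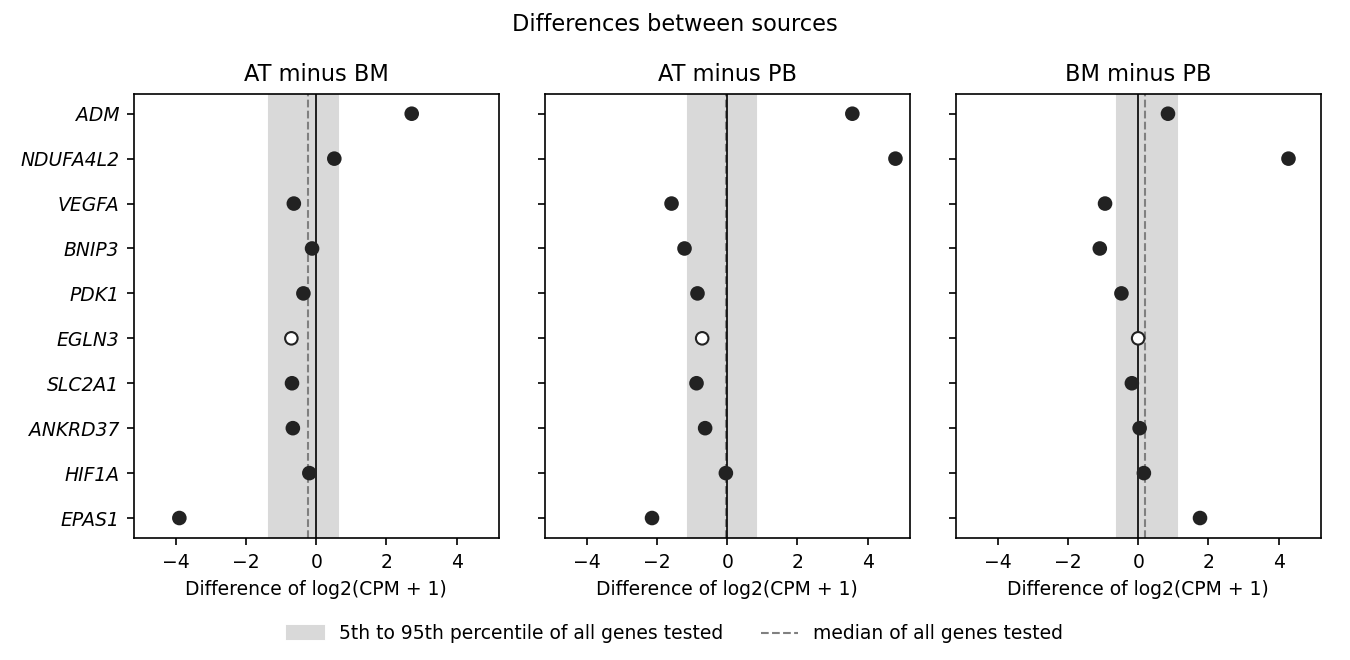
Difference of log2(CPM + 1) between sources for each hypoxia response gene, with the 5th to 95th percentile (grey band) and median (dashed line) of all genes tested. Filled points reached 10 CPM in 1 of the sources. *ADM* (2.72 and 3.56) and *NDUFA4L2* (0.51 and 4.79) are the only points right of 0 in both comparisons of AT in the main setting.

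A wider list of 38 further HIF targets, all in the tables, was read in the same way. Between AT and BM, 28 reached 10 CPM, and 0 were called higher in AT and 6 lower, namely *STC1*, *TFRC*, *NDRG1*, *BHLHE40*, *TGFB3* and *PLOD2*, beside 2.46% and 8.33% of all genes. Between AT and PB, 26 reached 10 CPM, with *EDN1* and *LOX* called higher in AT and *TGFB3*, *BHLHE40*, *SLC16A3* and *DDIT4* lower, beside 4.02% and 5.8% of all genes. Between BM and PB, 27 reached 10 CPM, with *EDN1* and *TFRC* called higher in BM and *TGFB3* lower, beside 5.8% and 2.15%. Several of these names were chosen after their values were seen, since each count was small. The medians were -0.25, -0.36 and -0.03, beside -0.24, -0.03 and 0.20 for all genes, so the list as a whole was not higher in the source with most *ADM*.

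The named ends of the list show how far single targets went their own way. *EDN1*, the gene of the vasoconstrictor endothelin, was at 14.8 and 18.5 CPM in AT and BM and 0.192 CPM in PB, which like *NDUFA4L2* set PB apart. *LOX*, the collagen cross-linking enzyme, was at 442, 351 and 188 CPM, and *STC2*, a secreted glycoprotein gene, at 16.2, 9.22 and 9.92 CPM. At the other end stood its relative *STC1* (1.15, 12.3 and 7.59 CPM), the growth factor gene *TGFB3* (21.2, 49.5 and 115 CPM) and the transcription factor gene *BHLHE40* (12.3, 31.3 and 45.5 CPM).

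Of 16 glycolytic genes, 15 were in the tables and all 15 reached 10 CPM. Between AT and BM, 11 of 15 were lower in AT, none was called (beside 2.46% of all genes higher and 8.33% lower), and the median was -0.30, beside -0.24 for all genes. Between AT and PB, 14 of 15 were lower in AT, with a median of -0.51 beside -0.03, and 2 were called lower (*ALDOC* and *LDHA*), beside 5.8% of all genes. Between BM and PB, 12 of 15 were lower in BM, with a median of -0.22 beside 0.20, *ENO2* being called higher and *ALDOC* lower, beside 5.8% and 2.15% of all genes. Such small counts lie near the background. *LDHA*, which converts pyruvate to lactate, was at 525, 707 and 1070 CPM, *PGAM1* at 209, 306 and 376 CPM and *ALDOC* at 19.7, 17.9 and 48.7 CPM. The glycolytic genes nearest to higher values in AT were *GPI* (81.6, 63.4 and 84.4 CPM), *ENO2* (14.7, 27.2 and 7.02 CPM) and *PFKL* (45.2, 40.3 and 47.4 CPM).

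Whether *ADM* and *NDUFA4L2* went with the other members was then asked across cells of 1 source at a time. Every cell was thinned to 2500 UMIs, and Pearson's r was taken of log2(UMIs + 1). The cells of a source share a library, and at a fixed total a rise in 1 gene lowers the room for others, so r is a description and carries no test. At this depth, the Fano factor was 2.12, 1.95 and 1.40 for *NDUFA4L2*, whereas *VEGFA*, *PDK1*, *EGLN3*, *SLC2A1*, *ANKRD37*, *HIF1A* and *EPAS1* lay between 0.987 and 1.17 in all sources. For these 7 genes, with means of up to 0.370 UMIs per thinned cell, the spread over cells was thus close to counting noise, which keeps r small. At such low means the factor stays near 1 even where levels differ between cells, so such differences are not excluded.

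Values of r between *ADM* and the members were low in all 3 sources, and at the shares over all genes given here a count of 0 of 9 says nothing about the members. In AT (5403 cells) 0 of 9 members reached r of 0.1, beside 0.781% of the 2560 genes detected in at least 10% of thinned cells. The highest were *NDUFA4L2* (0.0932), *BNIP3* (0.0863) and *HIF1A* (0.0689), at ranks 22, 27 and 44, and *EPAS1* was the lowest (-0.0395). *NDUFA4L2* passed 0.1 in a second thinning draw (0.104), and on unthinned counts 3 members did. In BM (5580 cells) 0 of 9 reached 0.1, beside 0.103% of genes, with *BNIP3* at 0.0946 and rank 5 of 2913, *SLC2A1* at 0.0652 and rank 26, and *NDUFA4L2* at 0.0395. On unthinned counts 2 members of BM passed 0.1. In PB (5318 cells) 1 of 9 did, beside 0.0766% of genes. That member was *BNIP3* (0.106), at rank 2 of 2611, and *HIF1A* was at 0.0610 and rank 9, and at 0.0224 in a second thinning draw. *NDUFA4L2*, present in few cells, was at -0.0245, a value that vanished in a second thinning draw but was -0.0285 on unthinned counts. The median r of the members with *ADM* was 0.0194, 0.0294 and 0.0296 in AT, BM and PB, beside -0.00238, 0.00298 and -0.000247 over all genes tested. *VEGFA*, *EGLN3*, *SLC2A1* and *ANKRD37* lay below the 10% detection limit of those genes in every source. So did *PDK1* in AT, *EPAS1* in AT and PB, and *NDUFA4L2* in PB. These members are set beside genes that were detected in more cells. Across the sources *BNIP3* was therefore the member that stood nearest to *ADM* by rank in BM and PB, although every value was weak. On unthinned counts its r with *ADM* was 0.124, 0.181 and 0.190 in AT, BM and PB, and that of *SLC2A1* was 0.135 in BM.

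*NDUFA4L2* and *BNIP3* were the pair with the highest r. In AT, r was 0.275, the first rank of 2560 genes, and in BM it was 0.256, the first of 2913. *PDK1* followed in AT at 0.112, so 2 of 9 members reached 0.1, beside 1.05% of genes. In BM *PDK1* was at 0.0782, and 1 of 9 members reached 0.1, beside 0.515%. In PB, where *NDUFA4L2* was scarce, *BNIP3* was at 0.0423, and 0 of 9 members reached 0.1, beside 0.0383%. *BNIP3* and *PDK1* had r of 0.0976, 0.131 and 0.117 in AT, BM and PB. *BNIP3* was thus part of the highest pair of members in every source, with *NDUFA4L2* in AT and BM and with *PDK1* in PB.

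**Figure D3:**
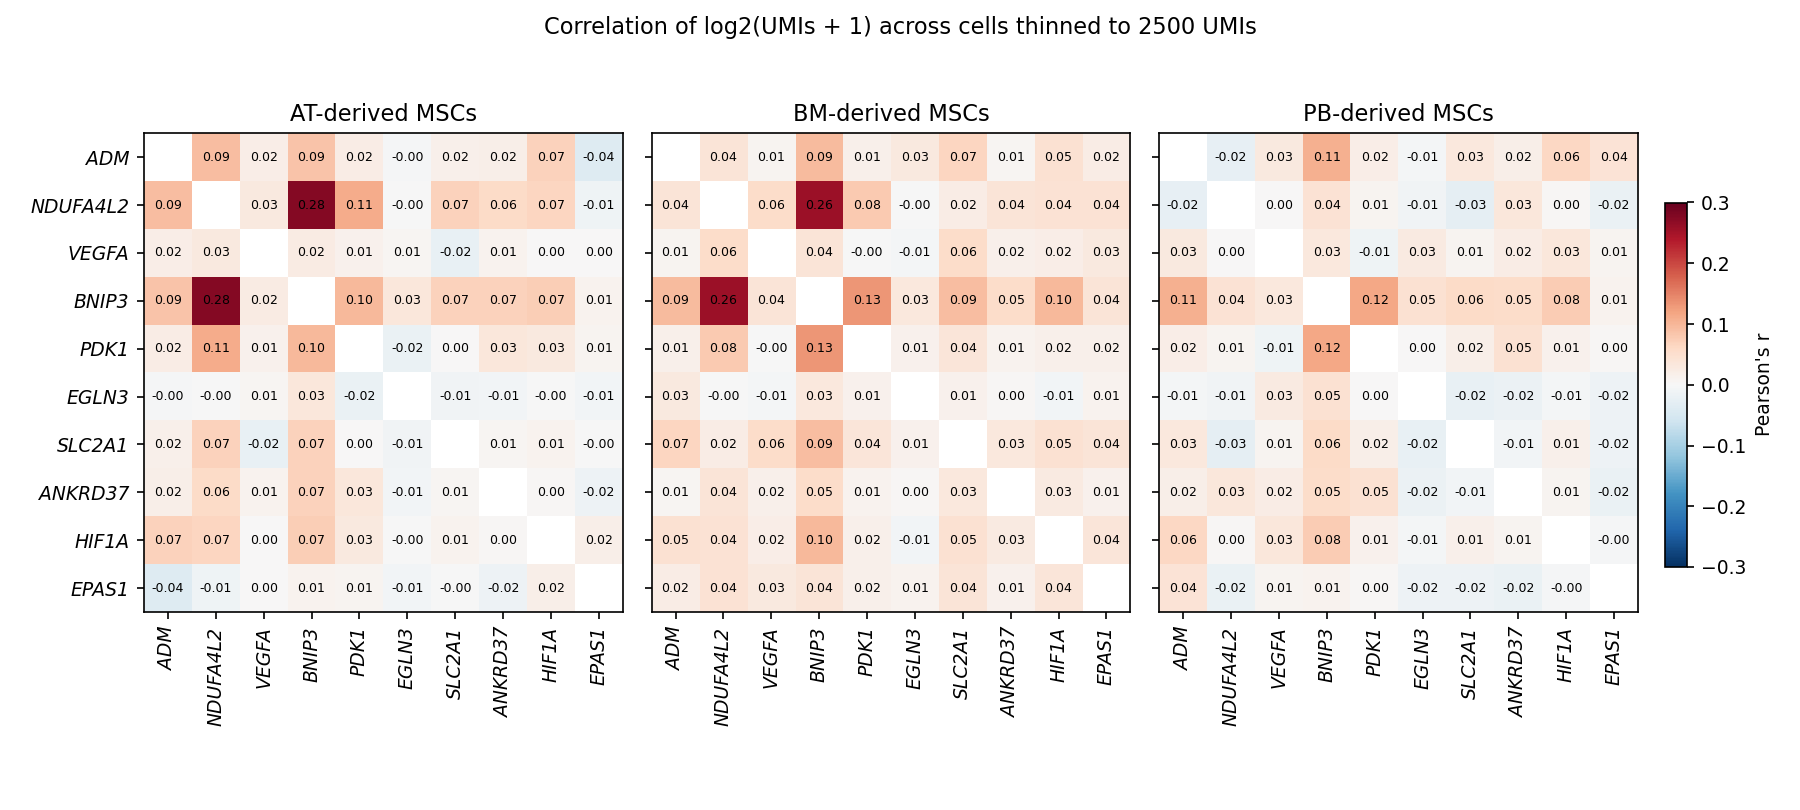
Pearson's r of log2(UMIs + 1) for each pair of hypoxia response genes across cells thinned to 2500 UMIs, in MSCs from the 3 sources, on a colour scale from -0.3 to 0.3. The darkest square is *NDUFA4L2* with *BNIP3* in AT (0.275) and BM (0.256), and the *ADM* row is pale throughout.

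The 5 genes with the highest r differed between *ADM* and *NDUFA4L2* within each source, except that *BNIP3* was among those of both in BM. For *ADM* in AT they were *MYL9* (0.177), *TPM1* (0.176), *THBS1* (0.157), *ACTA2* (0.146) and *IGFBP5* (0.143), of which *MYL9*, *TPM1* and *ACTA2* belong to the contractile apparatus. This was not particular to *ADM*, since *BNIP3* in AT had higher r with *ACTA2* (0.240) and *TPM1* (0.221). In BM they included *THBS1* (0.145), *TNFRSF12A* (0.125), *TPM1* (0.0984) and *BNIP3* (0.0946). In PB they were *IER3* (0.114), *BNIP3* (0.106), *SOD2* (0.0926), *ANXA1* (0.0916) and *C2H4orf3* (0.0881). *THBS1* and *TPM1* were thus shared by AT and BM, and *BNIP3* by BM and PB.

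For *NDUFA4L2* in AT, *BNIP3* was followed by *MIF* (0.208), *ALDOA* (0.193), *GAPDH* (0.189) and *LDHA* (0.182), of which the last 3 are glycolytic enzymes. In BM, *BNIP3* was followed by *MIF* (0.160), *LDHA* (0.154), the contractile gene *TAGLN* (0.152) and *CTHRC1* (0.135). In PB the leading gene was *MGP*, the matrix Gla protein, at 0.113, followed by *ALPL* (0.0817), *S100A4* (0.0649), *GSN* (0.0622) and *ANXA2* (0.0619). The 5 leading genes of PB were thus not among those of AT or BM, although *BNIP3* (rank 31 of 2612) and, as a list, the glycolytic genes went with *NDUFA4L2* in PB too.

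The same relations can be read as levels. When AT cells were grouped by their thinned *ADM* UMIs, 1750 cells had 0, 2127 had 1 to 2 and 1526 had 3 or more. Across these groups *NDUFA4L2* was at 205, 242 and 308 CPM, *BNIP3* at 445, 520 and 628 CPM and *HIF1A* at 108, 130 and 147 CPM. *EPAS1* was at 8.23, 5.08 and 2.62 CPM, a ratio of 0.319 (0.141 to 0.655) between the ends, which rests on 36, 27 and 10 UMIs. Its r with *ADM* lay between -0.0689 on unthinned counts and -0.0054 in the cells with the fewest proliferation transcripts. From the first group to the last, *NDUFA4L2* differed by a ratio of 1.51 (1.38 to 1.65), *BNIP3* by 1.41 (1.33 to 1.499), *HIF1A* by 1.36 (1.20 to 1.54) and *PDK1* by 1.27 (1.02 to 1.59). For *VEGFA*, *SLC2A1*, *ANKRD37* and *EGLN3* the interval of the ratio included 1.

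In PB only 21 cells had 3 or more *ADM* UMIs, too few for a group. From the 4649 cells with 0 to the 648 cells with 1 to 2 UMIs, *BNIP3* went from 1175 to 1559 CPM, a ratio of 1.33 (1.27 to 1.38), and *HIF1A* from 129 to 170 CPM. *NDUFA4L2* was at 9.55 and 4.32 CPM, of which the second rests on 7 UMIs of 1 thinning draw, and no order is read from it. In BM the 105 cells with 3 or more *ADM* UMIs held 907 CPM of *BNIP3*, as against 531 CPM in the 4531 cells with 0, a ratio of 1.71 (1.49 to 1.94). In all 3 sources, cells with more *ADM* therefore held more *BNIP3*. Between cells with 0 and with 1 to 2 UMIs, other intervals also lay above 1. In PB these included *SLC2A1* (ratio 1.52, 1.12 to 2.02), *VEGFA* (1.38, 1.04 to 1.83) and *EPAS1* (26.3 and 39.5 CPM). In BM they were *SLC2A1* (1.75, 1.35 to 2.24), *HIF1A* (1.21), *NDUFA4L2* (1.17) and *EPAS1* (1.17). For *PDK1*, *EGLN3* and *ANKRD37* the interval included 1 in both, and for *VEGFA* in BM. *EPAS1* thus rose here and fell in AT, although its interval in the 105 BM cells included 1.

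Grouping by *NDUFA4L2* gave steeper steps of *BNIP3* and *PDK1* in AT and BM, although not of every member. The highest group of AT was also smaller, with 361 cells beside 1526 by *ADM*. In AT, *BNIP3* was at 403, 641 and 1253 CPM in the 3550 cells with 0, the 1492 with 1 to 2 and the 361 with 3 or more *NDUFA4L2* UMIs, a ratio of 3.11 (2.90 to 3.32) between the ends. *PDK1* was at 29.5, 45.8 and 82.0 CPM, a ratio of 2.78 (2.12 to 3.61). *ANKRD37* was at 5.97, 8.31 and 21.1 CPM, a ratio of 3.53 (1.97 to 6.05). *ADM* had a lower ratio, with 681, 784 and 947 CPM, of 1.39 (1.29 to 1.495). For *EGLN3* and *EPAS1* the interval of the ratio included 1. The AT cells richest in *NDUFA4L2* thus held about as much *BNIP3* as the whole PB library.

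In BM the steps were alike, with *BNIP3* at 452, 768 and 1329 CPM in 4095, 1262 and 223 cells, a ratio of 2.94 (2.72 to 3.18). *PDK1* was at 44.2, 60.2 and 98.7 CPM, a ratio of 2.23 (1.65 to 2.95), and *VEGFA* at 13.5, 20.9 and 30.5 CPM, a ratio of 2.26 (1.28 to 3.76). *ADM* was at 102, 120 and 142 CPM, a ratio of 1.39 (1.09 to 1.75). *SLC2A1* had a ratio of 1.27 (0.715 to 2.11), beside 1.81 (0.855 to 3.38) between the end groups by *ADM* in BM. For *EGLN3* the interval included 1 by either gene. In PB the 93 cells with 1 to 2 *NDUFA4L2* UMIs held 1789 CPM of *BNIP3*, as against 1214 CPM in the 5221 cells with 0. *ADM* was at 30.1 and 60.4 CPM in these groups, with an interval of the ratio (0.1996 to 1.03) that included 1, and for *SLC2A1* the 93 cells held 1 UMI. Cells are not replicates, and their spread exceeded counting noise for *ADM*, *NDUFA4L2* and *BNIP3*, so these intervals are narrower than the full error.

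**Figure D4:**
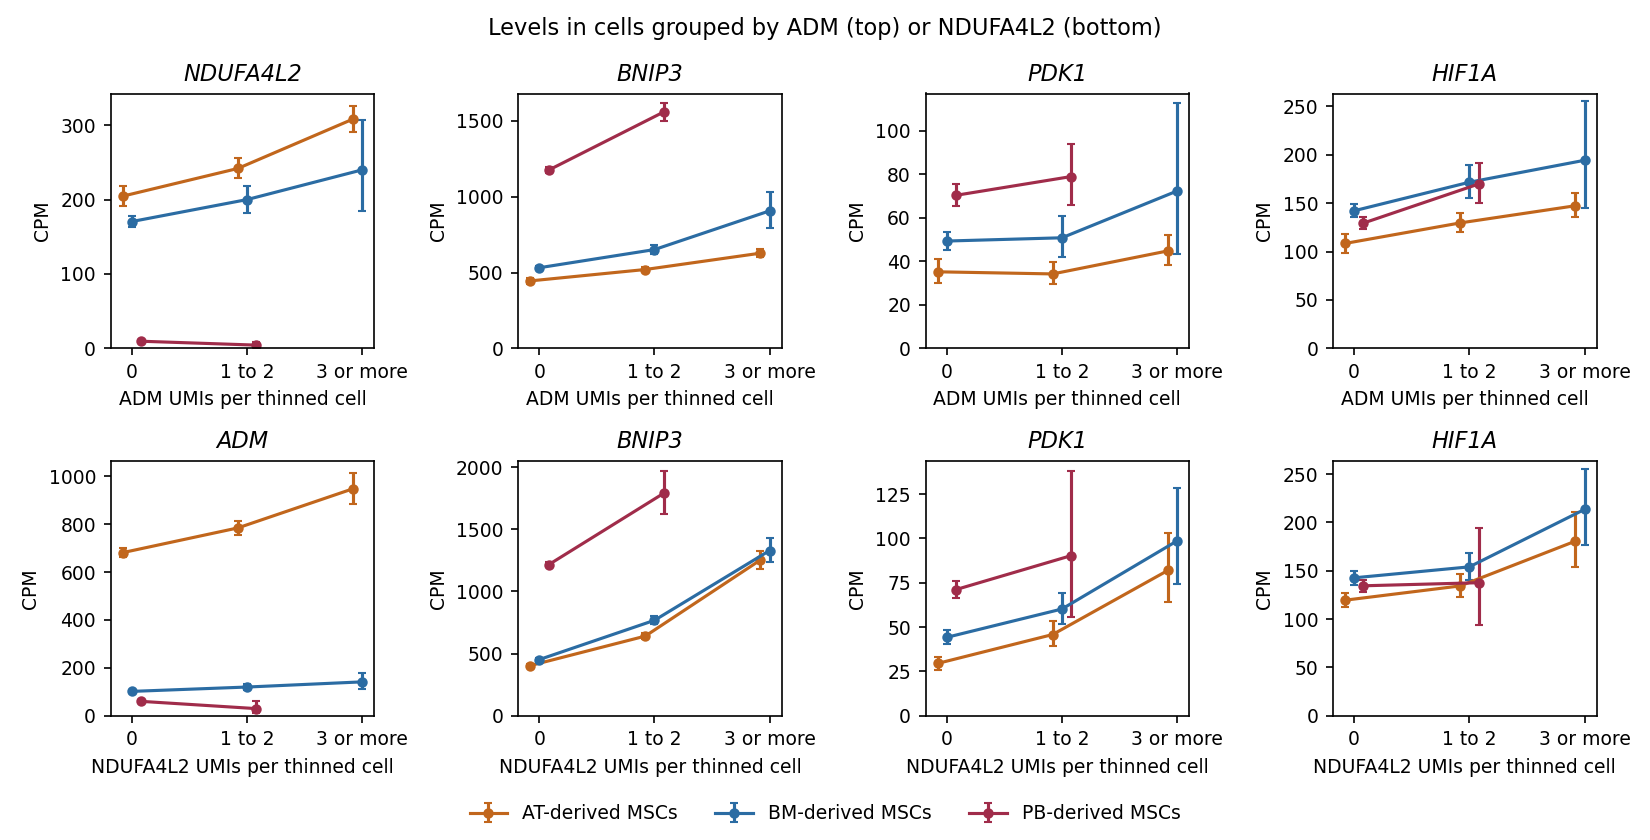
Levels in CPM, with exact 95% Poisson intervals, of 4 members in cells grouped by thinned UMIs of *ADM* (top) or *NDUFA4L2* (bottom) in MSCs from the 3 sources. Groups under 50 cells are left out. *BNIP3* runs from 403 to 1253 CPM over the *NDUFA4L2* groups of AT, and from 445 to 628 CPM over the *ADM* groups.

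Cells were last placed by their UMIs on gene lists that leave out the 10 members and were chosen with earlier results of these data known. Cells at or above the upper quartile of a source were compared with those at or below its lower quartile. The lists hold genes that already led by r on the same counts, such as *MYL9*, *ACTA2* and *LDHA*, so the ratios are not separate evidence. By glycolytic genes in AT, 1417 high and 1549 low cells differed in *NDUFA4L2* (460 and 128 CPM, a ratio of 3.59, interval 3.24 to 3.97) and in *BNIP3* (921 and 291 CPM, a ratio of 3.16, 2.96 to 3.39). *SLC2A1* followed with a ratio of 2.79 (1.79 to 4.45). *ADM* differed by a ratio of 1.15 (1.09 to 1.21), with 797 and 696 CPM. Cells rich in glycolytic transcripts were thus rich in *NDUFA4L2* and *BNIP3*, with little difference in *ADM*.

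The same order held in BM and PB. Between the glycolytic quartiles, the ratios in BM were 2.91 (2.58 to 3.29) for *NDUFA4L2*, 2.26 (2.12 to 2.41) for *BNIP3* and 1.52 (1.32 to 1.75) for *ADM*. In PB they were 3.86 (2.11 to 7.53), 1.91 (1.83 to 1.99) and 1.22 (1.01 to 1.48). *PDK1* was above 1 in all 3 sources as well, with ratios of 2.06, 2.11 and 1.68. For *HIF1A* they were 1.18, 1.05 and 0.868.

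By 12 contractile genes, such as *ACTA2*, *TAGLN* and *MYL9*, the ratios of *ADM* were higher than by glycolytic genes, with intervals that overlapped in BM and PB. The high and low AT cells held 932 and 536 CPM of *ADM*, a ratio of 1.74 (1.64 to 1.84). The ratio was 1.66 (1.45 to 1.92) in BM and 1.55 (1.28 to 1.87) in PB. *BNIP3* had ratios of 2.40, 2.25 and 1.23, and *NDUFA4L2* of 2.28, 2.12 and 1.49, of which the interval in PB (0.879 to 2.56) included 1. Smooth muscle and pericyte markers were present in each source, with sums of 3123, 3582 and 2716 CPM over 13 markers and the pericyte genes *KCNJ8* and *ABCC9* at 0. Of the 7 that reached 10 CPM, 3 were higher and 4 lower in AT than in BM (median -0.08), and 5 were higher and 2 lower in AT than in PB (median 0.89). *DES*, the muscle intermediate filament gene, was at 204, 5.04 and 0.288 CPM, whereas *TAGLN* was at 997, 1918 and 1637 CPM. *DES* is singled out after its values were seen, and the part of this list in the *ADM* difference was not tested.

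By the 38 further HIF targets, the high and low AT cells differed in *BNIP3* by a ratio of 3.08 (2.89 to 3.28), in *NDUFA4L2* by 2.81 (2.57 to 3.08) and in *ADM* by 1.29 (1.22 to 1.35). In BM the ratios were 2.70 (2.54 to 2.86), 2.55 (2.29 to 2.84) and 1.96 (1.72 to 2.24). In PB they were 2.20 (2.10 to 2.30), 3.62 (1.95 to 7.24) and 1.73 (1.42 to 2.12). By r across cells with the UMIs of the list, *ADM* was at 0.0897, 0.112 and 0.0739 in AT, BM and PB, so its order of sources depended on the measure.

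**Figure D5:**
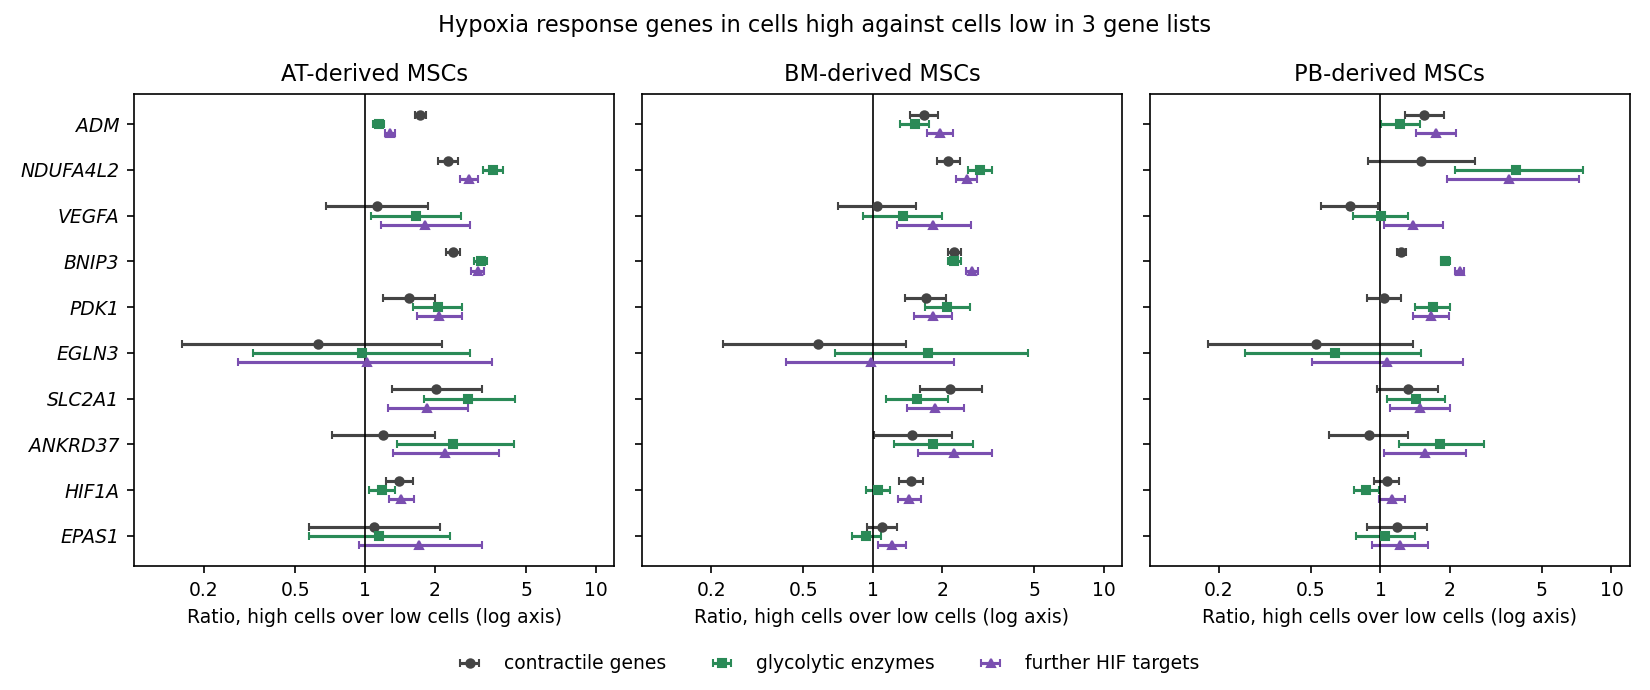
Ratio (log axis) of the level of each hypoxia response gene in cells at or above the upper quartile over cells at or below the lower quartile of 3 gene lists, with exact 95% intervals, in MSCs from the 3 sources. In AT, *NDUFA4L2* lies at 3.59 for glycolytic genes and *ADM* at 1.15. For contractile genes in AT, *ADM* lies at 1.74, below *NDUFA4L2* (2.28) and *BNIP3* (2.40).

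By 25 proliferation genes, other members differed in BM. BM cells at or above the upper quartile (1474 cells) held less *EPAS1* (67.3 CPM) than the 2314 cells with none of their UMIs (112 CPM), a ratio of 0.601 (0.517 to 0.697). *VEGFA* (9.23 and 20.4 CPM) had a ratio of 0.452 (0.299 to 0.667). *HIF1A* had a ratio of 0.766 (0.683 to 0.858), and *PDK1* went the other way at 1.36 (1.14 to 1.63). In AT and PB the upper group is every cell with at least 1 such UMI, which does not mark cycling cells. In AT the *EPAS1* ratio was 1.71 (1.04 to 2.83) and in PB 1.02 (0.827 to 1.26). *ADM* had ratios of 0.872, 1.22 and 0.909 in AT, BM and PB. By 14 genes of the amino acid and unfolded protein stress response, which also induces *VEGFA*, the ratio of *VEGFA* was 1.52 (0.959 to 2.45) in AT, 2.14 (1.48 to 3.15) in BM and 1.33 (1.02 to 1.75) in PB. Other members also had intervals above 1. These were *BNIP3* in AT, BM and PB (1.17, 1.16 and 1.14), *NDUFA4L2* in AT (1.24) and BM (1.28), *ADM* (1.23) and *HIF1A* (1.13) in AT, and *ANKRD37* (1.76) and *EPAS1* (1.24) in BM. No member had an interval wholly below 1.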

How the data were processed

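Per the labels and the study's methods, 10X Genomics 3' (version 2) libraries were read with Cell Ranger, mapped to EquCab3.0, and UMIs per gene were counted with ESAT. The deposited tables hold unnormalized UMI counts, as whole numbers, for each gene in each barcode. The files give chromosome and strand, and no gene starts or ends. Whether barcodes called doublets by the study were removed before deposit is not known, and no doublet caller was run here beyond the upper UMI limit.

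Cells were defined here by 2500 to 15000 UMIs, of which no more than 3% came from mitochondrial genes, and their UMIs were summed per source. A sum of 3 UMIs corresponds to 0.0750, 0.0746 and 0.0721 CPM in AT, BM and PB. Differences are of log2(CPM + 1). Thinning drew 2500 UMIs per cell without replacement. Exact Poisson, Clopper-Pearson and conditional ratio intervals (95%, SciPy 1.17.1, Python 3.11.15) cover counting error only. Scripts for differences and correlations were tested on simulated counts.

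The 10 members and all gene lists were chosen with earlier results of these data known, and several members also stand in gene lists that the study drew from these libraries, so their direction is not independent evidence. The text names all members, the 5 genes with the highest r with *ADM* and with *NDUFA4L2* per source, the HIF machinery and receptor genes, and of the longer lists the 3 genes at each end of the difference between AT and the mean of BM and PB. A gene that this rule names is not reported here. Quartiles are ranges of a list's UMIs and not cell types, with ties kept, so they can hold more than the nominal number of cells. Genes that share reads with near-identical copies could not be separated from them. Sequences were not used here.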

Additional observations from a re-analysis of the deposited data

Results flagged for a closer look

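The AT table holds 5279 barcodes below 2500 UMIs that are kept cells of the PB library, and these barcodes are outside the comparisons of kept cells. Most of them enter AT in the alternative with all barcodes of at least 500 UMIs, which takes in 10788 AT barcodes in place of 5403. Summed over the 4428290 UMIs of the 5279 barcodes, *ADM* was at 76.6 CPM (interval 68.6 to 85.2), beside 729.8 CPM in kept AT cells and 60.8 CPM in kept PB cells. *BNIP3* was at 1241 CPM (1208 to 1274), beside 528 and 1232 CPM. *EPAS1* was at 30.5 CPM (25.6 to 36.1), beside 5.63 and 28.4 CPM, and *NDUFA4L2* at 14.0 CPM (10.7 to 17.9), beside 249 and 8.0 CPM. The 870 AT barcodes below 2500 UMIs that neither BM nor PB keeps held 436 CPM of *ADM* and 845 CPM of *BNIP3*. With all barcodes of at least 500 UMIs included, the difference of log2(CPM + 1) of *ADM* between AT and PB was 3.40 in place of 3.56. The origin of these barcodes was not tested.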

How the results depend on the processing

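No paired analysis was possible because each source is 1 library, and for the same reason no replicate could be left out. The counts of members called between sources (1 higher in AT than BM, 2 higher in AT than PB) were the same under every alternative run, and the 3 members apart between BM and PB became 4 with TMM (edgeR 4.0.16), as *VEGFA* passed the limit at -1.17. TMM shifted differences of log2 CPM by 0.28 (AT and BM), 0.04 (AT and PB) and -0.23 (BM and PB), and those of log2(CPM + 1) by near these amounts, less closely in sparse genes. TMM turned the uncalled AT to BM differences of *BNIP3* (to 0.16) and *HIF1A* (to 0.08), and those of *HIF1A* (-0.07) and *ANKRD37* (-0.18) between BM and PB. *BNIP3* also turned between AT and BM with all barcodes of at least 500 UMIs (0.06) and in the cells with the fewest proliferation transcripts (0.02). The first of these takes most of the low AT barcodes kept in PB into AT, so its turn does not describe kept AT cells. With 25 CPM in place of 1 CPM added, *VEGFA* (-0.66) and *EPAS1* (-0.80) were no longer 2-fold lower in AT than in PB, and in the cells with the fewest proliferation transcripts *ANKRD37* was 2-fold lower in AT than in BM (-1.06). The sparse *EGLN3* reached -1.02 between AT and BM at its lowest over the alternatives. Counts of members with r of at least 0.1 were small and moved by 1 to 3. With *ADM* in AT the count was 3 on unthinned counts, 1 in a second thinning draw and 1 in the cells with the fewest proliferation transcripts, in place of 0. With *ADM* in BM it was 2 on unthinned counts, 1 with an upper limit of 10000 UMIs and 1 in those cells, in place of 0, and with *ADM* in PB it was 0 in those cells, in place of 1. With *NDUFA4L2* in AT it was 1 by Spearman's rho, 4 on unthinned counts and 3 both in the second draw and in those cells, in place of 2, *ADM* itself passing 0.1 in the last pair (0.104 and 0.122), and in BM 2 on unthinned counts, in place of 1. The cause of these moves was not tested. Leaving out barcodes that occur in another table gave no value for PB, since all its kept barcodes occur in the AT table. Leaving out barcodes kept in another library was added after seeing the data and changed none of these counts. Depth limits *EGLN3*, *ANKRD37*, *SLC2A1* and *VEGFA* within cells, which had a UMI in under 7% of thinned cells of each source.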
